A study of Mus musculus with 9 samples.

Results

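The 9 genes described here encode mucins of the ocular surface and proteins of the goblet cells that secrete mucus: Muc1, Muc4, Muc16 and Muc20, which are mucins anchored in the cell membrane, the gel-forming mucins Muc5ac and Muc5b, the trefoil peptide Tff1, the transcription factor Spdef and the protein disulphide isomerase Agr2. They were taken by symbol from the deposited table, in which all 9 were found once among 54532 genes. The RNA was that of flat-mounted choroid and retina from mice of the C57BL/6 strain, in 3 groups of 3 libraries each. The BetP-Gel@Ran group was sampled 3 months after a gel was injected into the vitreous. The CNV group carries the abbreviation for choroidal neovascularization, and its sample titles name wet age-related macular degeneration. The Untreated group is described only as such. The series concerns ranibizumab, an antibody fragment against human vascular endothelial growth factor A, given with the gel, but the treatment label of the BetP-Gel@Ran group names the gel alone and does not say whether those mice had CNV. No sampling time is given for the CNV and Untreated groups, so time and treatment cannot be told apart. All groups share the strain, and the labels name no transgene and no cell sort. Whether the 3 libraries of a group are 3 animals is not stated in the labels, so a p-value here reflects only how far these libraries vary, and that variation may be technical.

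Mucins are long proteins covered with sugar chains that hold water and keep particles and microbes off an epithelium. On the surface of the eye, the cells of the cornea and conjunctiva carry membrane-anchored mucins, while conjunctival goblet cells release gel-forming mucins into the tear film. Mucin polymers are folded in the endoplasmic reticulum with the help of Agr2, and Spdef is needed for goblet cells to form in the conjunctiva of mice. Neither the neural retina nor the choroid is known for goblet cells.

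Between 16990118 and 18753737 reads per library fell on genes, and in each library 13164 to 13481 genes had a level of 1 FPKM or more (fragments per kilobase of transcript and per unit of sequencing depth). The labelled tissue was present, since the summed level of 6 pigment epithelium genes was 869 to 926 FPKM in BetP-Gel@Ran, 851 to 1229 FPKM in CNV and 826 to 1135 FPKM in Untreated libraries, with none of them at 0. A list of 6 rod genes of the retina was less even. It summed to 1130 to 1580 FPKM in BetP-Gel@Ran, 840 to 1007 FPKM in CNV and 2254 to 3316 FPKM in Untreated libraries. Surface epithelium, which the label does not name, was present too. A list of 7 corneal epithelium genes summed to 16636 to 18707 FPKM in BetP-Gel@Ran, 10144 to 13040 FPKM in CNV and 19726 to 23830 FPKM in Untreated libraries. A list of 6 keratin genes of the conjunctival epithelium summed to 1386 to 1871 FPKM in BetP-Gel@Ran, 1677 to 2733 FPKM in CNV and 2190 to 2271 FPKM in Untreated libraries. Lens genes were uneven, at 666 to 2758, 4.29 to 64.7 and 210 to 10806 FPKM in the same groups, with the highest value in Untreated replicate 3. A list of 5 skeletal muscle genes summed to 759 to 911 FPKM in BetP-Gel@Ran, 550 to 929 FPKM in CNV and 3544 to 3968 FPKM in Untreated libraries. The rod and muscle sums were thus higher in every Untreated library than in any library of the other groups. In such bulk samples, fewer cells of a type and less RNA per cell cannot be told apart.

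The positions given here are those of the deposited table (build mm10). Muc1 lies at chr3:89229057-89233381 on the plus strand. Muc4 (chr16:32735886-32782391, plus strand) and Muc20 (chr16:32777419-32797435, minus strand) are neighbours that run into each other from opposite strands. Muc5ac (chr7:141788972-141819231) and Muc5b (chr7:141839070-141873084) follow each other on the plus strand with 19838 bases between them. Muc16 lies at chr9:18495455-18674530 on the minus strand. Agr2 lies at chr12:35992907-36004087 on the plus strand, and Spdef at chr17:27714352-27728955 and Tff1 at chr17:31161396-31165053 on the minus strand.

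The sequences upstream of 4 of these genes are shown because each of the 4 differed between groups in at least 1 comparison. They are the 250 bases before the RefSeq start (build GRCm38.p6, gene strand, 5′ to 3′), at chr3:89228806-89229055 (plus strand) for Muc1, chr16:32797436-32797685 (minus strand) for Muc20, chr17:27728952-27729201 (minus strand) for Spdef and chr12:35992675-35992924 (plus strand) for Agr2. Capitals mark the matches to 6 motifs that were searched on both strands. The core promoter element, or TATA box, was searched as TATAAA, and the element read by STAT factors as TTCNNNGAA. The element of AP-1 factors was searched as TGANTCA, and that of forkhead factors as TGTTTAC. The general element of ETS factors was searched as CCGGAA, and the kind that SPDEF binds was searched as CCGGAT.
Muc1: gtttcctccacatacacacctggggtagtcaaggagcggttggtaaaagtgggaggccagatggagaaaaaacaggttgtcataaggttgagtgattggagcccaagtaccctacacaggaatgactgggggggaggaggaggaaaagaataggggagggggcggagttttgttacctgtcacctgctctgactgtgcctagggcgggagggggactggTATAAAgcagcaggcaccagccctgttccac
Muc20: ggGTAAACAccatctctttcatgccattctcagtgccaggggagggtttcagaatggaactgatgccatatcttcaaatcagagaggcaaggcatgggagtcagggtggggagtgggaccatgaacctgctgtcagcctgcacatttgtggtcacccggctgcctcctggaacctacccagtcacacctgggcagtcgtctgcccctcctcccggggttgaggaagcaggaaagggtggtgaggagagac
Spdef: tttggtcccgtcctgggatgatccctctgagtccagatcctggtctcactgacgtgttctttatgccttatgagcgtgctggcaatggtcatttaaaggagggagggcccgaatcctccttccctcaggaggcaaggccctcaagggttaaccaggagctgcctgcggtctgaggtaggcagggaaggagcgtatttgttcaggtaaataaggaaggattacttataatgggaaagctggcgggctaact
Agr2: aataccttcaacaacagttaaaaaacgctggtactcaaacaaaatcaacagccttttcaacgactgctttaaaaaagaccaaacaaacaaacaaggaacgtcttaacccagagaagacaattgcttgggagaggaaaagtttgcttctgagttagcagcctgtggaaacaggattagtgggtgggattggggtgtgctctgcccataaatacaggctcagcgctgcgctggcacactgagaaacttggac
The Muc1 sequence held TATAAA at 31 to 26 bases before the start, a motif found in 12.4% of the 32851 RefSeq promoter windows of the same length. The Muc20 sequence held the forkhead element on the opposite strand at 248 to 242 bases before the start, as did 3.17% of windows. The Spdef and Agr2 sequences held none of the 6 motifs. The other shares were 7.02% for TTCNNNGAA, 6.75% for TGANTCA, 12.0% for CCGGAA and 4.94% for CCGGAT. Windows for Muc4, with TATAAA at 36 to 31 bases before the start, and for Muc16, with none of the motifs, were also found, so 6 of the 9 genes were matched. These matches are descriptions of letters and not binding sites.

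Of the 9 genes, 6 reached 1 FPKM in at least 3 of the 9 libraries and were tested with limma among 14086 genes, on log2(FPKM + 1) and Benjamini-Hochberg adjustment over all genes at a threshold of 0.05. Muc16, Muc5b and Tff1 stayed under 1 FPKM in every library. The summed level of the 9 genes was 176 to 225 FPKM in BetP-Gel@Ran, 168 to 226 FPKM in CNV and 89.7 to 122 FPKM in Untreated libraries. Muc1, Muc4 and Muc20 together made up 81.4% to 93.5% of that sum in all 9 libraries, so the membrane-anchored mucins exceeded the gel-forming mucins in level per length everywhere.

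Muc1 had the largest changes of the 6 tested genes in the comparisons with the Untreated group. It encodes a mucin with a short cytoplasmic tail that takes part in signalling. Its level was 47.9, 43.2 and 46.6 FPKM in BetP-Gel@Ran libraries, 90.1, 71.3 and 73.3 FPKM in CNV libraries and 16.2, 17.2 and 16.8 FPKM in Untreated libraries. The 3 groups did not overlap, with CNV highest, BetP-Gel@Ran between and Untreated lowest. The means were 45.9 ± 2.42 FPKM in BetP-Gel@Ran, 78.2 ± 10.3 FPKM in CNV and 16.7 ± 0.486 FPKM in Untreated libraries (SD, n = 3 each).

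Muc1 rose in CNV against Untreated libraries by 2.15 ± 0.095 in log2 units (SE, limma, adjusted p = 2.53e-06), a ratio of mean FPKM of 4.67. It fell by 0.75 ± 0.095 in BetP-Gel@Ran against CNV libraries (adjusted p = 0.00400), a ratio of 0.587. The BetP-Gel@Ran level remained above the Untreated one, with a log2 fold change of 1.40 ± 0.095 (adjusted p = 2.38e-05) and a ratio of 2.74. All 3 differences passed the threshold without any 1 library. Muc1 took 20.7% to 24.5% of the summed FPKM of the 9 genes in BetP-Gel@Ran, 32.4% to 42.7% in CNV and 13.3% to 18.8% in Untreated libraries.

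**Figure D1:**
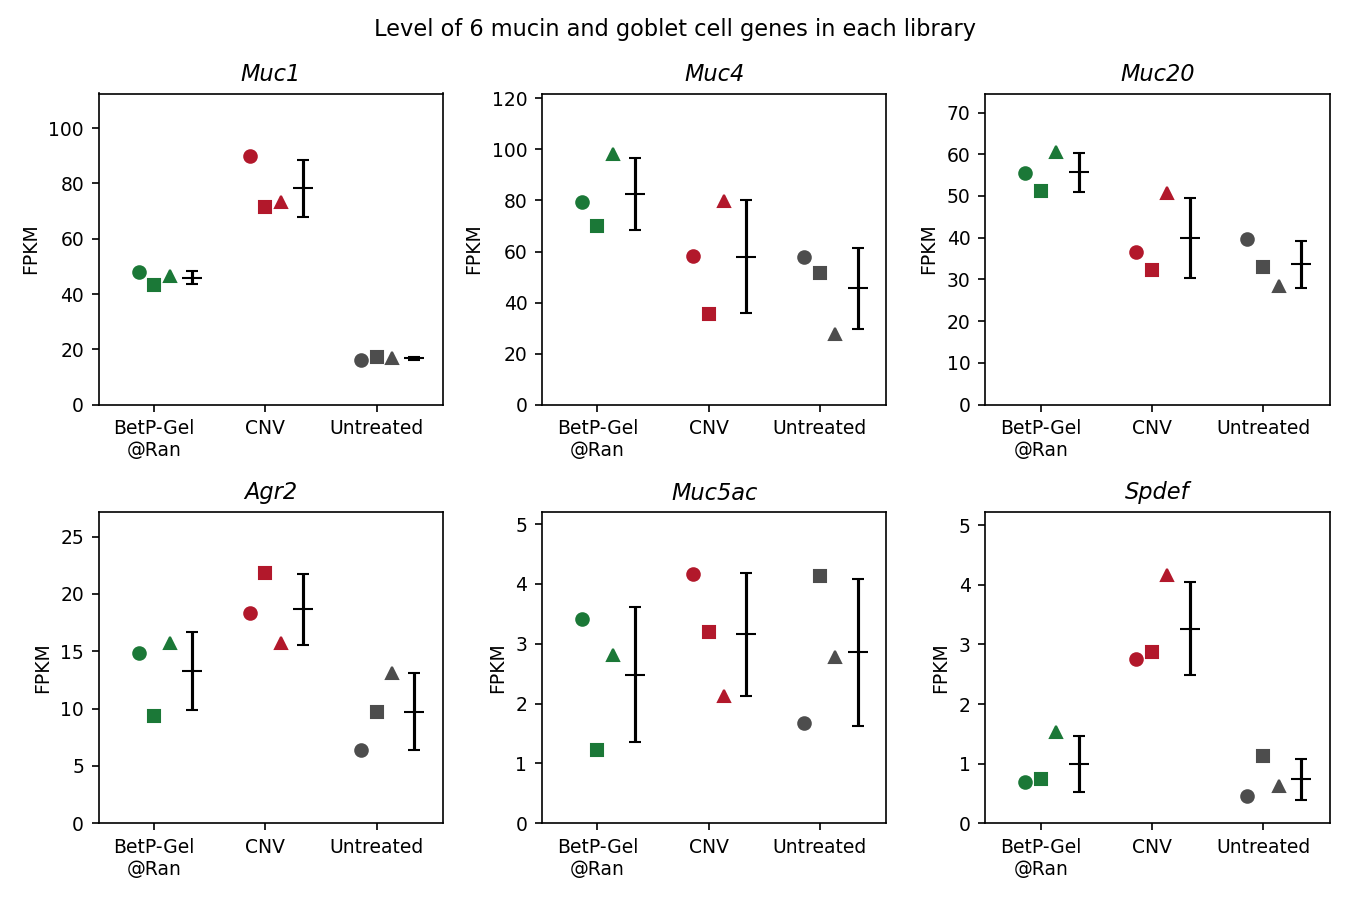
Level in FPKM (vertical axes, from 0) of the 6 tested genes in the BetP-Gel@Ran, CNV and Untreated groups, with a circle, square and triangle for replicates 1, 2 and 3 and a bar for the mean ± SD (n = 3). Muc1 separates the 3 groups and Spdef separates CNV from both others, Muc4 and Muc20 are highest on average in BetP-Gel@Ran, and Muc5ac overlaps throughout.

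Muc4 and Muc20 had their highest means in the BetP-Gel@Ran group. Muc4, a very large membrane mucin that in rats binds the receptor ErbB2, measured 79.4, 70.2 and 98.1 FPKM in BetP-Gel@Ran, 58.4, 35.5 and 80.0 FPKM in CNV and 57.7, 51.6 and 27.7 FPKM in Untreated libraries. The BetP-Gel@Ran libraries all lay above the Untreated ones but overlapped the CNV libraries, which overlapped the Untreated ones too. Its means were 82.6 ± 14.2 FPKM in BetP-Gel@Ran, 58.0 ± 22.2 FPKM in CNV and 45.7 ± 15.8 FPKM in Untreated libraries (SD, n = 3 each). None of the 3 differences passed the threshold in limma. The largest, BetP-Gel@Ran against Untreated, was 0.89 ± 0.33 on the log2 scale with a 95% interval of 0.14 to 1.65 (adjusted p = 0.0673), and it passed after quantile normalization (adjusted p = 0.0379) and without CNV replicate 2 (adjusted p = 0.0393). CNV against Untreated gave 0.33 ± 0.33 (adjusted p = 0.451), and BetP-Gel@Ran against CNV gave 0.56 ± 0.33 (adjusted p = 0.275).

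Muc20, a smaller membrane mucin, measured 55.6, 51.1 and 60.5 FPKM in BetP-Gel@Ran, 36.7, 32.3 and 50.8 FPKM in CNV and 39.6, 32.9 and 28.4 FPKM in Untreated libraries. Every BetP-Gel@Ran library exceeded every library of the other groups, by a narrow margin over CNV replicate 3, and CNV and Untreated libraries overlapped. It rose by 0.72 ± 0.17 in log2 units in BetP-Gel@Ran against Untreated libraries (limma, adjusted p = 0.0105), with means of 55.7 ± 4.69 FPKM in BetP-Gel@Ran and 33.6 ± 5.63 FPKM in Untreated libraries (SD, n = 3 each). Against CNV, where the mean was 39.9 ± 9.63 FPKM, the difference of 0.49 ± 0.17 did not pass (adjusted p = 0.0799), but did without CNV replicate 3 (adjusted p = 0.0107). CNV against Untreated gave 0.23 ± 0.17 (adjusted p = 0.301).

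The ends of Muc4 and Muc20 overlap over chr16:32777419-32782391, and 627 exonic bases of GENCODE M21 are shared, 5.33% of the Muc4 and 15.6% of the Muc20 exonic length. The library kit does not mark strand, so reads from the shared bases cannot be told apart, and how they were counted is not stated in the labels. Within a library the 2 genes stayed near each other: the ratio of Muc4 to Muc20 FPKM was 1.37 to 1.62 in BetP-Gel@Ran, 1.10 to 1.59 in CNV and 0.975 to 1.57 in Untreated libraries. By contrast, the ratio of Muc1 to Muc20 FPKM separated the groups, at 0.770 to 0.862 in BetP-Gel@Ran, 1.44 to 2.46 in CNV and 0.409 to 0.591 in Untreated libraries. For Muc1 over Muc4 it was 0.475 to 0.615 in BetP-Gel@Ran, 0.917 to 2.01 in CNV and 0.281 to 0.607 in Untreated libraries, so here BetP-Gel@Ran and Untreated overlapped. In CNV replicates 1 and 2, Muc1 was the most abundant of the 9 genes, in Untreated replicate 3 it was Muc20, and in the other 6 libraries it was Muc4.

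Muc16, a giant membrane mucin that adds to the barrier of the ocular surface, was found at a low level. It had 22, 18 and 25 reads in BetP-Gel@Ran, 21, 15 and 24 reads in CNV and 2, 6 and 9 reads in Untreated libraries. All BetP-Gel@Ran and CNV libraries lay above all Untreated ones, and BetP-Gel@Ran and CNV overlapped. The sums were 65 reads in BetP-Gel@Ran, 60 in CNV and 17 in Untreated libraries. In a fit of limma voom on the recovered reads that admitted genes with at least 10 reads in all, which was added after the data had been seen, Muc16 was higher in CNV than in Untreated libraries by 1.78 ± 0.54 on the log2 scale (adjusted p = 0.0169). It was higher in BetP-Gel@Ran than in Untreated libraries by 1.99 ± 0.54 (adjusted p = 0.0123), and BetP-Gel@Ran against CNV gave 0.21 ± 0.39 (adjusted p = 0.793). That fit called 34.0% of 22399 genes in CNV against Untreated, 11.1% in BetP-Gel@Ran against CNV and 23.1% in BetP-Gel@Ran against Untreated.

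Of the gel-forming mucins, Muc5ac did not pass the test in any comparison, and Muc5b was too low to enter it. Muc5ac, the main secreted mucin of conjunctival goblet cells, measured 3.41, 1.22 and 2.81 FPKM in BetP-Gel@Ran, 4.17, 3.19 and 2.12 FPKM in CNV and 1.67, 4.13 and 2.78 FPKM in Untreated libraries. The 3 groups overlapped, and each spanned more than 1 FPKM within itself. CNV against Untreated gave 0.13 on the log2 scale with a 95% interval of -0.58 to 0.84 (limma, adjusted p = 0.767). BetP-Gel@Ran against CNV gave -0.29 with an interval of -0.999 to 0.43 (adjusted p = 0.564), and BetP-Gel@Ran against Untreated gave -0.16 with an interval of -0.87 to 0.56 (adjusted p = 0.732). Each interval spans 0 and reaches at least 0.43 to both sides, and the sign of each difference turned when 1 library was left out. CNV against Untreated was -0.11 without Untreated replicate 1 and -0.0434 without CNV replicate 1, and BetP-Gel@Ran against CNV was 0.0092 without BetP-Gel@Ran replicate 2. BetP-Gel@Ran against Untreated was 0.14 without BetP-Gel@Ran replicate 2 and 0.073 without Untreated replicate 2.

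Muc5b, a gel-forming mucin known from airways and salivary glands, had 58, 27 and 42 reads in BetP-Gel@Ran, 185, 132 and 59 reads in CNV and 44, 83 and 49 reads in Untreated libraries. CNV replicates 1 and 2 were the highest of the 9 libraries, while CNV replicate 3 lay within the Untreated range. In the limma voom fit on reads, CNV against Untreated gave 0.86 ± 0.44 (adjusted p = 0.168), BetP-Gel@Ran against CNV gave -1.39 ± 0.48 (adjusted p = 0.0951) and BetP-Gel@Ran against Untreated gave -0.54 ± 0.54 (adjusted p = 0.534). Tff1, a trefoil peptide that goblet cells can release with mucus, had 1 read in BetP-Gel@Ran replicate 1 and 0 in the 8 other libraries. A limit of 3 reads per library corresponds to 0.317 to 0.389 FPKM, so a difference in Tff1 was not detectable at this depth.

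**Figure D2:**
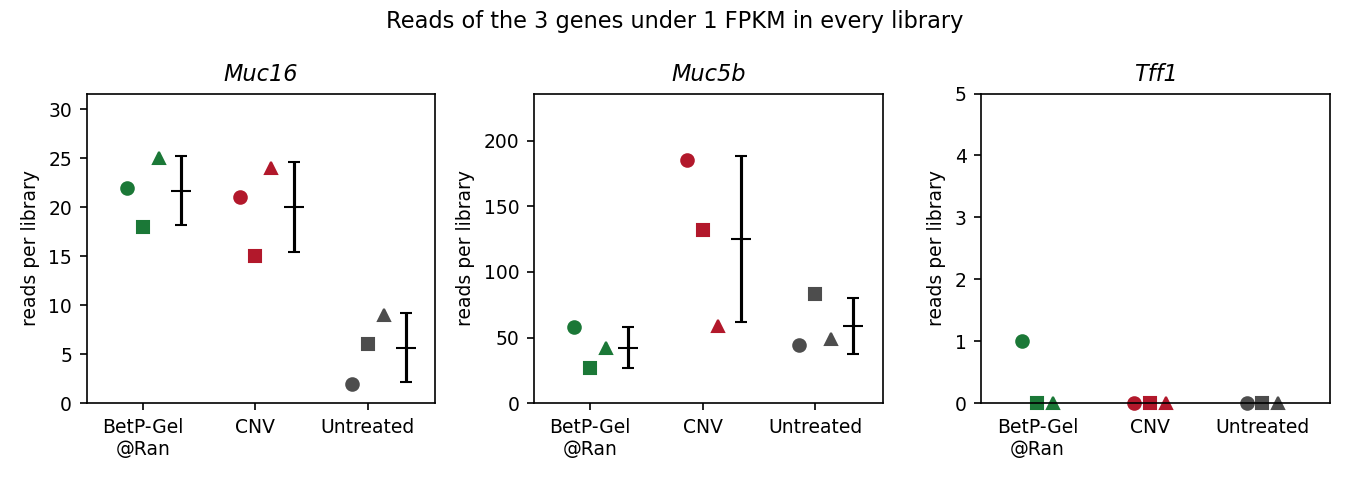
Reads per library (vertical axes, from 0) of Muc16, Muc5b and Tff1 in the BetP-Gel@Ran, CNV and Untreated groups, with a circle, square and triangle for replicates 1, 2 and 3 and a bar for the mean ± SD (n = 3, not drawn for Tff1). Muc16 lies at 15 to 25 reads in BetP-Gel@Ran and CNV and at 2 to 9 in Untreated libraries, and Tff1 has 1 read in all.

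The goblet cell factor Spdef was highest in the CNV group. It measured 0.693, 0.745 and 1.53 FPKM in BetP-Gel@Ran, 2.76, 2.87 and 4.16 FPKM in CNV and 0.460, 1.12 and 0.618 FPKM in Untreated libraries. Every CNV library lay above every library of both other groups, which overlapped. These levels rest on 28, 31 and 60 reads in BetP-Gel@Ran, 126, 116 and 179 reads in CNV and 18, 46 and 23 reads in Untreated libraries. Spdef rose in CNV against Untreated libraries by 1.30 ± 0.20 in log2 units (limma, adjusted p = 0.000836), and the ratio of mean FPKM was 4.45. It fell by 1.11 ± 0.20 in BetP-Gel@Ran against CNV libraries (adjusted p = 0.0125), a ratio of 0.303, which did not pass without BetP-Gel@Ran replicate 2 (adjusted p = 0.0522). BetP-Gel@Ran against Untreated gave 0.19 ± 0.20 (adjusted p = 0.493). Spdef reached 1 FPKM in 5 libraries, 3 of them CNV, so it entered the test mainly through the group in which it was high. Its differences from CNV are therefore given as a description.

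Agr2, the folding enzyme of mucin-secreting cells, measured 14.8, 9.35 and 15.7 FPKM in BetP-Gel@Ran, 18.4, 21.8 and 15.7 FPKM in CNV and 6.39, 9.73 and 13.1 FPKM in Untreated libraries. CNV libraries lay above the Untreated ones, BetP-Gel@Ran replicate 3 came close to the lowest CNV library, and BetP-Gel@Ran overlapped Untreated. Agr2 rose in CNV against Untreated libraries by 0.91 ± 0.25 in log2 units (limma, adjusted p = 0.0174), with means of 18.6 ± 3.08 FPKM in CNV and 9.74 ± 3.36 FPKM in Untreated libraries (SD, n = 3 each). This difference did not pass without CNV replicate 2 (adjusted p = 0.0648) or without Untreated replicate 1 (adjusted p = 0.05003). BetP-Gel@Ran against CNV gave -0.48 ± 0.25 (adjusted p = 0.228), and BetP-Gel@Ran against Untreated gave 0.43 ± 0.25 (adjusted p = 0.220), with a mean of 13.3 ± 3.43 FPKM in BetP-Gel@Ran libraries. The ratio of Agr2 to Muc5ac FPKM was 4.35 to 7.66 in BetP-Gel@Ran, 4.40 to 7.41 in CNV and 2.36 to 4.72 in Untreated libraries, which overlapped.

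Set against Untreated libraries, CNV libraries had 3 of the 6 tested genes higher and 0 lower, where 44.6% of all genes were called, 22.5% as higher and 22.1% as lower. The 3 were Muc1, Spdef and Agr2. Spdef, which is also counted as lower in the next comparison, entered the test mainly through CNV libraries. BetP-Gel@Ran libraries had 0 higher and 2 lower than CNV libraries, Muc1 and Spdef, where 14.1% of genes were called, 5.81% as higher and 8.27% as lower. They had 2 higher than Untreated libraries, Muc1 and Muc20, and 0 lower, where 34.2% of genes were called, 16.1% as higher and 18.1% as lower. The median log2 fold changes of the 6 were 0.62, -0.38 and 0.58 in these comparisons, while those of all tested genes were 0.0057, 0.00048 and -0.0058. With so many genes called in each comparison and 6 genes tested, these counts are given as a description. The comparisons share libraries, so their values are set side by side and not as independent results.

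**Figure D3:**
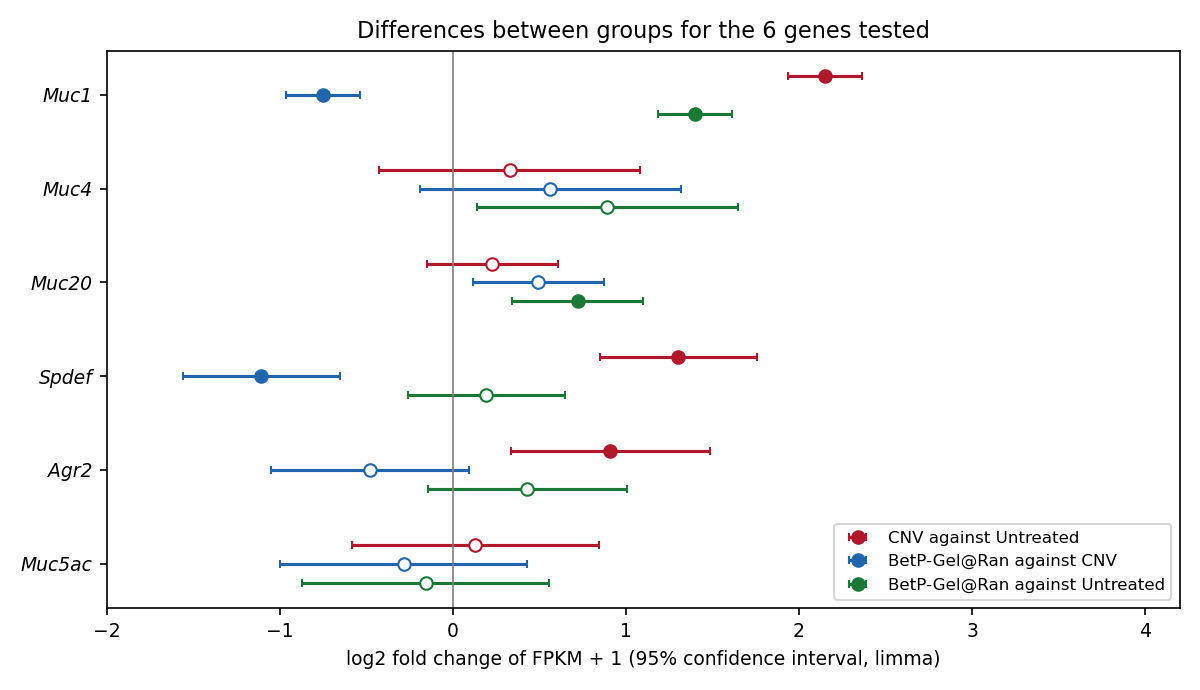
Log2 fold change of FPKM + 1 (horizontal axis) with its 95% confidence interval from limma for the 6 tested genes in CNV against Untreated, BetP-Gel@Ran against CNV and BetP-Gel@Ran against Untreated. Filled points passed an adjusted p of 0.05: Muc1 in all 3 comparisons, Spdef in the first 2, Agr2 in the first and Muc20 in the last. Spdef entered the test mainly through CNV libraries.

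Most of the remaining mucin genes were at or near 0. Of 10 further mucin and mucin-like genes in the table, 3 were tested, and Muc19, Muc6 and 5 others were not. In CNV against Untreated libraries 1 rose and 1 fell, with a median log2 fold change of -0.17. In BetP-Gel@Ran against CNV 1 rose and 1 fell (median 0.11), and in BetP-Gel@Ran against Untreated 1 rose and 0 fell (median 0.17). Over all genes 22.5% were called higher and 22.1% lower in the first comparison, 5.81% and 8.27% in the second and 16.1% and 18.1% in the third. Muc13, a membrane mucin of the gut and airways, had 1.06 ± 0.171 FPKM in BetP-Gel@Ran, 2.50 ± 0.644 FPKM in CNV and 0.317 ± 0.0614 FPKM in Untreated libraries (SD, n = 3 each). Its log2 fold change was 1.40 in CNV against Untreated (limma, adjusted p = 6.98e-05), -0.75 in BetP-Gel@Ran against CNV (adjusted p = 0.0122) and 0.64 in BetP-Gel@Ran against Untreated (adjusted p = 0.00674), the same order of groups as Muc1. Muc13 reached 1 FPKM in the 3 CNV libraries, in 2 BetP-Gel@Ran libraries and in 0 Untreated libraries. It thus entered the test mainly through the group in which it was highest. Muc15, another membrane mucin, ran the other way. It had 10.6 ± 0.940 FPKM in BetP-Gel@Ran, 6.49 ± 1.55 FPKM in CNV and 9.35 ± 0.898 FPKM in Untreated libraries, fell by 0.49 in CNV against Untreated (adjusted p = 0.0231) and rose by 0.65 in BetP-Gel@Ran against CNV (adjusted p = 0.0233). Without 1 library its adjusted p reached 0.0809 in the first of these and 0.0762 in the second, so neither held throughout. In CNV against Untreated it did not pass without CNV replicate 1 or without Untreated replicate 1 or 2, and in BetP-Gel@Ran against CNV without any 1 of the BetP-Gel@Ran libraries or without CNV replicate 1 or 2.

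Among 16 proteins that are secreted with mucus or help to make it, 6 were tested. In CNV against Untreated libraries 3 rose and 0 fell, with a median log2 fold change of 0.43, a share near the 44.6% called over all genes, and in BetP-Gel@Ran against Untreated 3 rose and 0 fell (median 0.47), where 34.2% were called. Clca2, counted as higher in CNV here and as lower in BetP-Gel@Ran against CNV below, reached 1 FPKM in the 3 CNV libraries alone. Against CNV, 1 rose and 2 fell in BetP-Gel@Ran libraries (median -0.21), where 5.81% of all genes were called higher and 8.27% lower. That count of called genes was 1 without CNV replicate 1 or 2 or without BetP-Gel@Ran replicate 2 or 3. The largest rise was that of Bpifb1, a secreted protein of mucosal glands, with 2.38 ± 0.479 FPKM in BetP-Gel@Ran, 9.30 ± 2.83 FPKM in CNV and 0.426 ± 0.0616 FPKM in Untreated libraries (SD, n = 3 each). It rose by 2.82 in CNV against Untreated (limma, adjusted p = 1.12e-05), fell by 1.58 in BetP-Gel@Ran against CNV (adjusted p = 0.00231) and rose by 1.23 in BetP-Gel@Ran against Untreated (adjusted p = 0.00132). Bpifb1 reached 1 FPKM in all BetP-Gel@Ran and CNV libraries and in 0 Untreated libraries. It thus entered the test through the groups in which it was higher. Pigr, the receptor that carries immunoglobulin A into mucus, had 6.13 ± 0.657 FPKM in BetP-Gel@Ran and 5.85 ± 1.23 FPKM in CNV, above 2.12 ± 0.248 FPKM in Untreated libraries. It rose by 1.12 in CNV against Untreated (adjusted p = 0.000181) and by 1.19 in BetP-Gel@Ran against Untreated (adjusted p = 0.000289). Fcgbp, a protein of the mucus gel, had 2.81 ± 0.430 FPKM in BetP-Gel@Ran and 1.04 ± 0.276 FPKM in Untreated libraries and rose by 0.91 (adjusted p = 0.00211). Tff3, the trefoil peptide of goblet cells, was listed at 0 in all 9 libraries.

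Of 17 transcription factors of secretory and surface epithelium, 12 were tested, and Foxa2 and Atoh1 were listed at 0 in all libraries. In CNV against Untreated libraries 2 rose and 2 fell (median 0.10), where 44.6% of all genes were called. Notch1, among those that rose, reached 1 FPKM in all BetP-Gel@Ran and CNV libraries and in 0 Untreated libraries. The groups in which Notch1 was higher thus admitted it to the test. Notch1 also counts among the 6 that rose in BetP-Gel@Ran against Untreated below. Foxa1, a forkhead factor, had 1.78 ± 0.114 FPKM in BetP-Gel@Ran, 3.22 ± 0.444 FPKM in CNV and 1.15 ± 0.0785 FPKM in Untreated libraries, rose by 0.97 in CNV against Untreated (limma, adjusted p = 6.98e-05) and fell by 0.60 in BetP-Gel@Ran against CNV (adjusted p = 0.00839). In that comparison 2 rose and 1 fell (median 0.18), where 5.81% of all genes were called higher and 8.27% lower. That count of called genes was 1 without any 1 of the BetP-Gel@Ran libraries or without CNV replicate 1 or 2, and 5 without CNV replicate 3. Elf5, an ETS factor of epithelia, fell by 0.57 in CNV against Untreated (adjusted p = 0.000801). In BetP-Gel@Ran against Untreated 6 rose and 1 fell (median 0.35), where 16.1% of all genes were called higher and 18.1% lower, among them the epithelial factors Klf5, which rose by 0.56 (adjusted p = 0.00507), Ehf, which rose by 0.46 (adjusted p = 0.00679), and Elf3, which rose by 0.43 (adjusted p = 0.0118). Scaled to 15 genes of surface epithelium, 4 of the 12 were called there, and Elf3 was not. With that scaling the median log2 fold change of all genes was -0.15, so no conclusion is drawn from this count.

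The sugar chains of mucins are built by a set of enzymes in the Golgi. Of 25 genes of O-glycan synthesis 18 were tested, and in CNV against Untreated libraries 9 rose and 2 fell, with a median of 0.35, where 22.5% of all genes were called higher and 22.1% lower. Galnt6 and Gcnt1 among them reached 1 FPKM in the 3 CNV libraries and in no other, so they entered the test through the group in which they were high, and their differences are given as a description. Galnt6, which attaches the first sugar, had 0.555 ± 0.211 FPKM in BetP-Gel@Ran, 3.62 ± 0.477 FPKM in CNV and 0.282 ± 0.104 FPKM in Untreated libraries. It was higher in CNV than in Untreated libraries by 1.85 on the log2 scale. Of the core-building enzymes, C1galt1 rose by 0.99 (limma, adjusted p = 0.000103), and Gcnt1 was higher by 1.47. The sialyltransferase gene St3gal4 rose by 1.22 (adjusted p = 4.54e-05). Between BetP-Gel@Ran and CNV libraries 3 rose and 7 fell (median -0.17), where 5.81% and 8.27% of all genes did. St3gal4 fell by 0.87 (adjusted p = 0.00422), also without any 1 library. Galnt6 and Gcnt1 are among the 7, lower than in CNV by 1.57 and 1.09. These values too are a description, since CNV libraries alone admitted both genes to the test. The count of 10 called was 3 without CNV replicate 1, without CNV replicate 2 or without BetP-Gel@Ran replicate 2, 4 without BetP-Gel@Ran replicate 3 and 5 without BetP-Gel@Ran replicate 1. Against Untreated, 6 rose and 0 fell in BetP-Gel@Ran libraries (median 0.25), near the 34.2% called over all genes. The largest was that of B3gnt7, an enzyme that lengthens sugar chains, at 1.10 (adjusted p = 0.000179). Scaled to surface epithelium, 3 were called there, with a median of -0.15 over all genes, and no conclusion is drawn from it.

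Of 12 receptors known to induce mucin genes, 11 were tested. In CNV against Untreated libraries 5 rose and 0 fell, with a median of 0.11, a share near the 44.6% called over all genes. Among the 5, Il6ra reached 1 FPKM in the 3 CNV libraries alone. Il17ra did so in the 3 CNV libraries, 1 BetP-Gel@Ran library and 0 Untreated libraries. Both thus entered the test mainly through the group in which they were highest. The 5 included both chains of the receptor for interleukins 4 and 13. Il4ra had 1.94 ± 0.250 FPKM in BetP-Gel@Ran, 8.13 ± 3.27 FPKM in CNV and 1.35 ± 0.255 FPKM in Untreated libraries, rose by 1.89 in CNV against Untreated (limma, adjusted p = 0.000307) and fell by 1.57 in BetP-Gel@Ran against CNV (adjusted p = 0.00789). Il13ra1 rose by 1.42 (adjusted p = 0.000197) and fell by 0.97 (adjusted p = 0.0108) in the same comparisons. Between BetP-Gel@Ran and CNV 0 rose and 4 fell (median 0.073), where 5.81% of all genes were called higher and 8.27% lower. Il6ra, which CNV libraries alone admitted to the test, is among the 4. That count of 4 was 2 without any 1 of the BetP-Gel@Ran libraries, without CNV replicate 1 or 2, or without Untreated replicate 1 or 2. In BetP-Gel@Ran against Untreated 3 were called, all higher (median 0.22), where 16.1% of all genes were called higher and 18.1% lower. That count of 3 was 1 without any 1 of the BetP-Gel@Ran libraries or without Untreated replicate 2 or 3, and 0 when scaled to surface epithelium. Under that scaling the median of all genes was -0.15, so no conclusion is drawn from the 0.

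**Figure D4:**
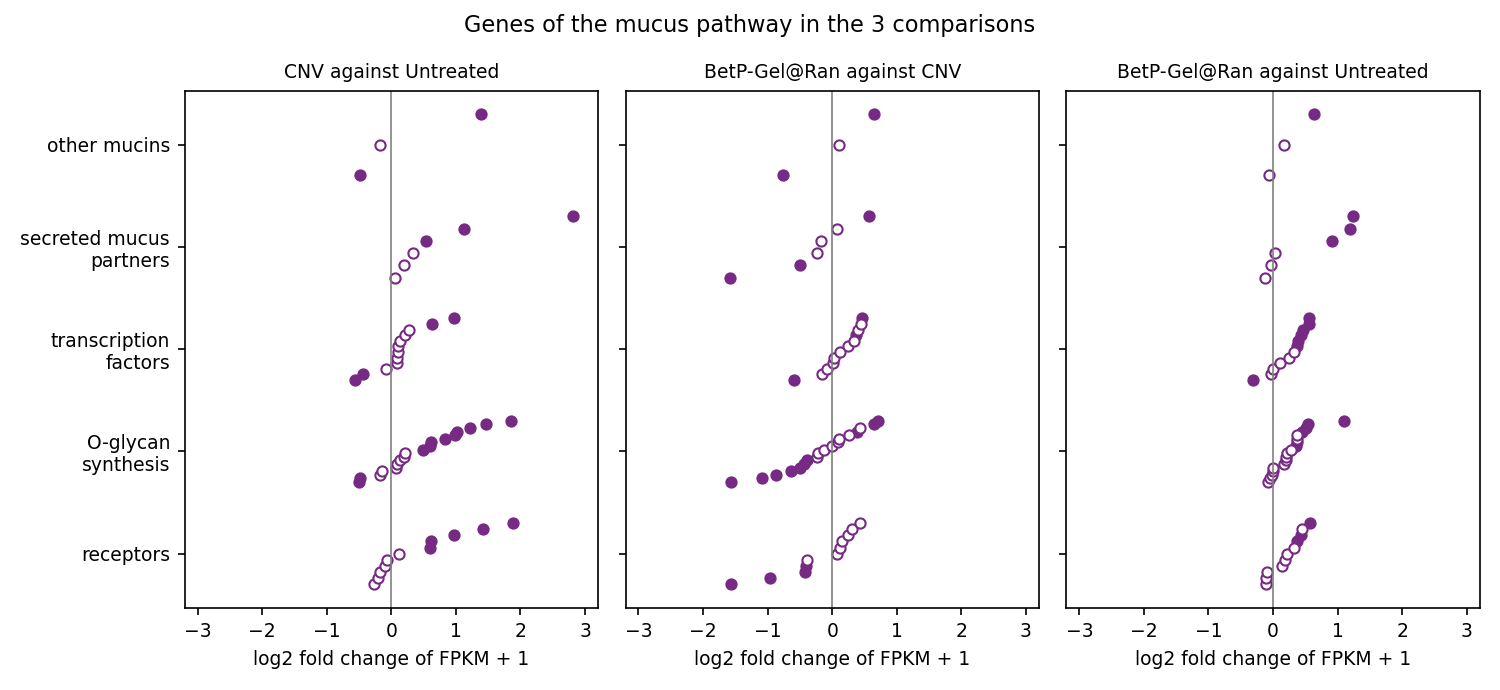
Log2 fold change of FPKM + 1 (horizontal axes) of every tested gene of 5 lists around the mucins, with filled points for genes that passed an adjusted p of 0.05 in limma. In CNV against Untreated, 9 of 18 genes of O-glycan synthesis rose and 2 fell, where 22.5% and 22.1% of all genes did. Among the 9, Galnt6 and Gcnt1 entered the test through CNV libraries alone. In BetP-Gel@Ran against CNV, filled points lie on both sides in every list but the receptors, with 0 higher and 4 lower.

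Markers of other cells differed between the groups too. All 8 tested genes of neutrophils and macrophages rose in CNV against Untreated libraries, 0 of 8 rose and 7 fell in BetP-Gel@Ran against CNV, and 4 rose in BetP-Gel@Ran against Untreated. Over all genes 22.5% were called higher and 22.1% lower in the first of these, 5.81% and 8.27% in the second and 16.1% and 18.1% in the third. Cxcr2, a chemokine receptor of neutrophils, reached 1 FPKM in the 3 CNV libraries alone and so entered the test through them. The summed level of the 8 was 544 to 784 FPKM in BetP-Gel@Ran, 1306 to 2191 FPKM in CNV and 252 to 283 FPKM in Untreated libraries, the same order of groups as Muc1, and none of the 8 was at 0. Of the 6 conjunctival keratin genes, 4 rose and 0 fell in CNV against Untreated, Krt7 by 1.05 (limma, adjusted p = 0.00393) and Krt19 by 1.13 (adjusted p = 0.00991). The 2 not called, Krt13 and Krt4, had log2 fold changes of -0.20 (adjusted p = 0.328) and -0.46 (adjusted p = 0.124) there. In BetP-Gel@Ran libraries 0 of the 6 were higher and 3 lower than in CNV, and 1 was higher and 2 lower than in Untreated libraries. Of 7 corneal genes 5 fell in CNV against Untreated, Krt12 by 1.51 (adjusted p = 0.000208), and Krt14, a keratin of basal cells, rose by 2.17 (adjusted p = 0.00716). In BetP-Gel@Ran 6 corneal genes were higher and 1 lower than in CNV, and 0 higher and 1 lower than in Untreated libraries. The part of these cells in the changes of Muc1, Spdef and Agr2 was not tested. Scaled to the 15 surface epithelium genes, which moved the median of all genes by 0.04 in CNV against Untreated, by -0.18 in BetP-Gel@Ran against CNV and by -0.15 in BetP-Gel@Ran against Untreated, the same counts of the 9 genes were called. Muc1 then differed by 2.19, -0.94 and 1.25 and Muc20 by 0.57 in BetP-Gel@Ran against Untreated (adjusted p = 0.0132). The 15 genes themselves went both ways in CNV against Untreated, with 2 called higher and 5 lower. Their mean is thus no measure of the amount of surface epithelium, and no conclusion about it is drawn from the unchanged counts. A list of 10 lacrimal and meibomian gland genes, with Pip at 0 in all libraries, summed to 1051 to 1301 FPKM in BetP-Gel@Ran, 471 to 871 FPKM in CNV and 1310 to 1692 FPKM in Untreated libraries. Most of that sum was the water channel gene Aqp5, at 1138 ± 130 FPKM in BetP-Gel@Ran, 592 ± 226 FPKM in CNV and 1467 ± 188 FPKM in Untreated libraries (SD, n = 3 each). The sum thus follows mainly this 1 gene, and no conclusion about gland tissue is drawn from it. Soat1 of the same list had the order of Muc1, at 1.79 ± 0.0722 FPKM in BetP-Gel@Ran, 3.31 ± 0.966 FPKM in CNV and 1.06 ± 0.164 FPKM in Untreated libraries, and rose by 1.04 in CNV against Untreated (limma, adjusted p = 0.000418). The part of gland cells was not tested.

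For each tested gene, the 3 genes with the most similar pattern over the 9 libraries were found by the root mean square difference of log2(FPKM + 1) values centred on each gene's mean, without predicted genes named Gm or Rik. For Muc1 they were Has2, a hyaluronan synthase, at a difference of 0.177, Cd48, a surface protein of blood cells, at 0.194 and Lyz2, the lysozyme of myeloid cells, at 0.195, where the spread of Muc1 itself was 0.897. For Muc20 they were Cpm at 0.0540, Serpinb8 at 0.0623 and Tjp1, a protein of tight junctions, at 0.0741, against a spread of 0.360. For Spdef they were Slco1a5 at 0.199, Olfm4 at 0.208 and Hcst at 0.219, against 0.619. For Agr2 they were Efcab7 at 0.182, Themis2 at 0.186 and Tc2n at 0.187, against 0.479, and for Muc4 Clca4c-ps at 0.218, Paqr8 at 0.221 and Crybg2 at 0.225, against 0.540. The nearest to Muc5ac were 3 pseudogenes at 0.213 to 0.224, against 0.391, the highest differences relative to the spread of the gene itself. These are descriptions over libraries that share groups, and no p-value is given.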

How the data were processed

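Per the labels' protocols, Trizol was used for extraction, poly-T beads for mRNA and a NEBNext Ultra kit for library preparation. The authors deposited a single table of FPKM values for mouse genes (build mm10, HTSeq 0.6.0, as named in the submitters' processing notes). Aligner and strand setting: not given in the sources used here. FPKM times gene length times a depth estimated for each library was a whole number, to within 0.05, for 100% of values, and these numbers were taken as reads. That estimated depth was 16141701 to 19813498, while 16990118 to 18753737 reads per library fell on genes. Limits of 3 reads use the estimated depth and cover counting error only.

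A gene was tested if 3 or more of the 9 libraries had 1 FPKM or more. limma 3.58.1 (R 4.3.3, statmod 1.5.0, trend and robust options) was run on log2(FPKM + 1), with 1 mean per group and no covariate. This scale understates the change of low genes. Tests were two-sided, with Benjamini-Hochberg adjustment over all genes of a comparison. The genes, lists, markers and tests were chosen with earlier results of these data known. Named are the 9 genes, up to 4 genes of a list with the smallest p in a comparison, and the 3 nearest patterns. The alternatives varied the pseudocount (0.1), the filter (none, or 5 FPKM), the normalization (quantile, division by the sum of FPKM, scaling to surface epithelium genes), the libraries (only the 2 groups compared, or 1 library left out) and the model (no trend or robust option, a replicate block, limma voom on recovered reads). The voom fit with at least 10 reads in all was added after the data had been seen. Exon overlap came from GENCODE M21 and promoters from RefSeq (GRCm38.p6). The deposited coordinates of 8 of the 9 genes were identical to GENCODE M21, all but Tff1. The test was also run on simulated data with independent noise and few changed genes. That setting differs from these data, in which many genes were called, and no conclusion is drawn from it.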

Additional observations from a re-analysis of the deposited data

How the results depend on the processing

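The counts of the 9 genes called were 3, 2 and 2 in CNV against Untreated, BetP-Gel@Ran against CNV and BetP-Gel@Ran against Untreated. Leaving out 1 library gave 2 to 3, 1 to 3 and 2 to 3, with 1 in BetP-Gel@Ran against CNV without BetP-Gel@Ran replicate 2. The filter of 5 FPKM gave 1 in BetP-Gel@Ran against CNV, since Spdef was then not tested. The other alternatives gave 2 to 4, 1 to 2 and 2 to 3, with 4 in CNV against Untreated under limma voom with at least 10 reads, which tested Muc16 too. Of the log2 fold changes of the 6 tested genes with 1 library left out, 152 kept direction and side of the threshold, 3 no longer passed, 2 newly passed and 5 turned sign. Those 5 were all of Muc5ac, whose range was -0.11 to 0.36 in CNV against Untreated, with -0.0434 without CNV replicate 1, -0.49 to 0.0092 in BetP-Gel@Ran against CNV, and -0.40 to 0.14 in BetP-Gel@Ran against Untreated, with 0.073 without Untreated replicate 2. Under the other alternatives 191 kept both and 1 newly passed.

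Replicate numbers recur in the 3 groups, but same-numbered libraries did not deviate together, with correlations of -0.148 to 0.0841 over 9 pairs, so the numbers were not taken to pair the libraries. With the replicate number as a block the counts of the 9 genes stayed at 3, 2 and 2, and 6048, 1398 and 4467 of all genes were called, against 6281, 1983 and 4813 without it.

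Scaling to surface epithelium genes left 219 of 2693 called genes higher in BetP-Gel@Ran against CNV, against 818 of 1983 without it, and 764 of 4164 higher in BetP-Gel@Ran against Untreated, against 2265 of 4813. Leaving out 1 library moved the number of genes called in BetP-Gel@Ran against CNV between 446 and 3215. The counts of Muc16, Muc5b and Tff1 are limited by depth.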
